A study of Mus musculus with 12 samples.

Results

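The peaks described here are the ATAC-seq peaks of mouse embryonic stem cells (ESCs) that lie in or beside olfactory receptor genes. A peak belonged to this set when its summit, the base of highest signal, fell inside or within 10 kb of a protein-coding gene whose symbol begins with Olfr on chromosomes 1 to 19. The 1128 such genes gave 424 merged windows of 22.4 Mb, which is 0.910% of the autosomal bases. Of the 423900 autosomal peaks in 12 libraries, 2078 met the rule. Merging peaks that overlapped or touched between libraries gave 1141 regions of 225614. Positions are on mm10, with the first base numbered 1.

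Olfactory receptors are odorant-binding G-protein-coupled receptors and form the largest gene family of mammals. Their genes stand in large clusters, most have a single coding exon, and they are silent in almost every cell type. In olfactory sensory neurons each cell uses 1 allele of 1 receptor gene, and the unused genes are covered by H3K9me3, a mark of heterochromatin. The factors best known at their promoters belong to the homeodomain (Lhx2) and Ebf families. ATAC-seq reads where a transposase can reach the DNA, and a peak is a place where its insertions exceed the local background.

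The study compared WT ESCs (line WT26) with Suv39h dn ESCs (line DN57), which lack both Suv39h1 and Suv39h2, a pair of H3K9 methyltransferases. Each genotype was therefore represented by 1 cell line. From each line came nuclei of asynchronous, untreated cultures, whole mitotic cells arrested with demecolcine and shaken off, and mitotic chromosomes that were released from such cells and sorted by flow cytometry after staining with Hoechst 33258 and Chromomycin A3. Every line was grown in serum with LIF. There were 2 libraries per genotype and preparation, and nothing in the labels says whether the 2 came from separate cultures, so p-values measure the spread between libraries, which may be technical. The comparison asks how much of the called accessibility falls into the silent receptor clusters in each preparation and genotype.

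The lists differed widely in length, from 1700 to 77268 autosomal peaks, and the number of peaks in the Olfr windows followed. The first mitotic Suv39h dn library stood apart with 6 peaks there and 1700 in all. Of 8 ESC markers, Sox2, Zfp42 and Esrrb had a peak within 1 kb of a start site in all 4 asynchronous libraries. Pou5f1 and Utf1 had one in 3 of these libraries, Nanog and Dppa4 in 2 and Klf4 in none. Thus 7 of 8 had one in at least 1 of them. Of 8 genes of olfactory sensory neurons, Omp, Cnga2, Rtp1 and Stoml3 had no start-site peak in any of the 12 libraries. The other 4, among them Ebf1 and Lhx2, had a peak in 6 to 9 libraries, and Ebf1 had one in all 4 asynchronous libraries.

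Of the 1141 regions, 595 (52.1%) resembled at least 1 other in the 201 bases around the summit, with 75% identity or more over at least 100 bases. Linking them gave 80 families, 7 of which held 12 or more regions and 344 regions (30.1%) together. The following sequences represent these 7 families, each by the region with the most links, because their peaks are described by preparation further on. All are given 5′ to 3′ on the plus strand. Capitals mark the 21 bases centred on the summit, except in family 4, where they mark TAATTA (a homeodomain core), and in family 6, where they mark ATGCAAAT (the octamer bound by POU factors such as Pou5f1).
Family 1, chr10:129413315-129413515, near Olfr785: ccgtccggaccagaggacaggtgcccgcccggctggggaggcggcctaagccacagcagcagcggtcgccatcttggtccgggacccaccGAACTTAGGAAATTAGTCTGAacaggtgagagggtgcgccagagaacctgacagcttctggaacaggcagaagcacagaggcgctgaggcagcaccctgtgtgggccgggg
Family 2, chr7:108659701-108659901, near Olfr510: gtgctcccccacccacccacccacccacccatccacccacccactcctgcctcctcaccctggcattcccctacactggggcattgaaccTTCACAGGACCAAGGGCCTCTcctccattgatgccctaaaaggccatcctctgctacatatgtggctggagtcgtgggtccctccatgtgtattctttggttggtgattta
Family 3, chr7:86706243-86706443, near Olfr292: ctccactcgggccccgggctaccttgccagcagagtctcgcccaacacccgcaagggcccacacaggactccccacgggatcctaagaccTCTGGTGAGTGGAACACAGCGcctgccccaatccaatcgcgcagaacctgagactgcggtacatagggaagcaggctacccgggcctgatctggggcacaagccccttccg
Family 4, chr7:108305521-108305721, near Olfr491: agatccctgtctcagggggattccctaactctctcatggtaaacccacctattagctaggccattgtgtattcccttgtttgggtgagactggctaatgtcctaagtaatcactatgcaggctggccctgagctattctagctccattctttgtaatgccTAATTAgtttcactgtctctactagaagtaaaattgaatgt
Family 5, chr4:118746805-118747005, near Olfr1338: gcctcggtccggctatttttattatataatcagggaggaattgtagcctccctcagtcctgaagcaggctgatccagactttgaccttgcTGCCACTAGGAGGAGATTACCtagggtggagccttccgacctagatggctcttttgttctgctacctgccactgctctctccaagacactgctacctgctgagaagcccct
Family 6, chr1:174456695-174456895, near Olfr220: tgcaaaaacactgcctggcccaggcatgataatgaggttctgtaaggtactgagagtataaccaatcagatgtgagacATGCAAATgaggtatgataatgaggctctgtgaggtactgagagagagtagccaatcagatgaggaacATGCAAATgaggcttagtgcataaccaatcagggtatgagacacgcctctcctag
Family 7, chr7:108602043-108602243, near Olfr506: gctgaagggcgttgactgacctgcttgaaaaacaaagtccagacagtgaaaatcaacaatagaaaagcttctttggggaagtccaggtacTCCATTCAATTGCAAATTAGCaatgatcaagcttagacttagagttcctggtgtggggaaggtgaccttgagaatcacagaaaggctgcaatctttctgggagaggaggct

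The receptor windows held fewer peaks than their length in every library. In asynchronous WT ESCs, 114 of 21627 and 266 of 55106 peaks lay there, or 0.527% and 0.483%, and in asynchronous Suv39h dn ESCs 123 of 24229 and 477 of 77268, or 0.508% and 0.617%. For WT the mitotic lists gave 0.251% and 0.415% (16 of 6364 and 54 of 13008), and for Suv39h dn 0.353% and 0.386% (6 of 1700 and 54 of 13982). Sorted WT chromosomes gave 0.490% and 0.451% (218 of 44494 and 293 of 64926), and sorted Suv39h dn chromosomes 0.496% and 0.393% (285 of 57416 and 172 of 43780). All 12 values were under the 0.910% that peaks spread evenly over the autosomes would give. The ratio to that share, called observed over uniform here, ran from 0.53 to 0.678 in asynchronous cells, from 0.276 to 0.456 in mitotic cells and from 0.432 to 0.545 in sorted chromosomes.

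**Figure D1:**
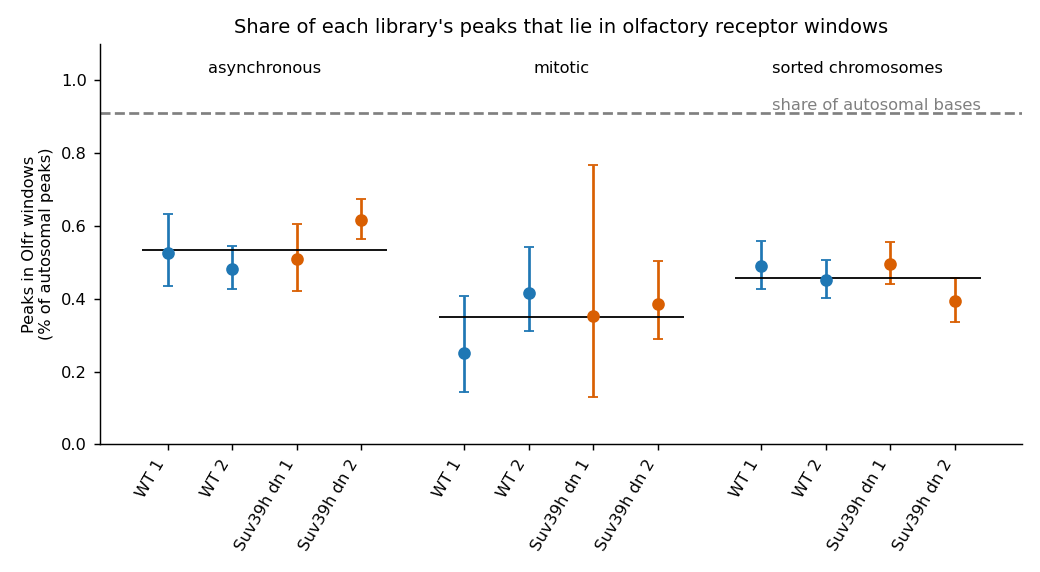
Percent of the autosomal peaks of each library that lie in the Olfr windows (y axis), by preparation, WT in blue and Suv39h dn in orange. Points are libraries with exact 95% binomial intervals that cover counting error only, black lines are means of 4 libraries, and the dashed line is the 0.910% of autosomal bases in the windows, which no interval reaches.

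The 3 preparations differed in this share. The mean was 0.534% ± 0.0586 (SD, n = 4) in asynchronous cells, 0.458% ± 0.0475 in sorted chromosomes and 0.351% ± 0.0714 in mitotic cells, and an exact permutation test of the spread between preparations within genotypes gave p = 0.00148 (one-sided, 8100 arrangements, smallest possible 0.000741). Each mitotic library was below each asynchronous library, in 16 of 16 pairs, with a difference of −0.182 percentage points. The exact two-sided permutation p was 0.0286, the smallest that 70 arrangements allow, and 0.0857 after Benjamini-Hochberg adjustment over 3 pairs. Sorted chromosomes were 0.106 points above mitotic cells (15 of 16 pairs, exact p = 0.0571, adjusted 0.0857) and differed from asynchronous cells by −0.0761 points (above in 2 of 16 pairs, exact p = 0.0857, adjusted 0.0857). No single pair therefore passed after adjustment. Without the short first mitotic Suv39h dn list, the mitotic difference from asynchronous cells was −0.183 points and the exact permutation p of the spread was 0.0104. The call on the spread was lost when every list was shortened to the 1700 strongest peaks (exact permutation p = 0.0933), where 2 to 10 peaks per library were left in the windows. It was also lost with windows of 50 kb (exact p = 0.0748) and when only summits inside a gene counted (exact p = 0.263). With peaks at start sites left out of every list, sorted chromosomes were at −0.0121 points against mitotic cells (exact p = 0.8).

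No difference between the genotypes passed the test. The Suv39h dn libraries exceeded WT by 0.0226 percentage points on average over the preparations (exact two-sided permutation p = 0.528, genotypes exchanged within preparations). The mean share was 0.562% ± 0.0776 (SD, n = 2) against 0.505% ± 0.0314 in asynchronous cells, 0.370% ± 0.0235 against 0.333% ± 0.116 in mitotic cells and 0.445% ± 0.0732 against 0.471% ± 0.0273 in sorted chromosomes, Suv39h dn first. The values of the genotypes overlapped in each preparation. With 2 libraries per group and counting intervals as wide as 0.130% to 0.767%, a difference of the size seen between preparations could have been missed within 1 preparation.

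Region by region, the receptor windows held few regions particular to a genotype. In asynchronous cells 18 of 560 regions (3.21%) had a peak in each Suv39h dn library and in no WT library, beside 2.42% of all regions. The opposite pattern was found for 4 regions (0.714%), beside 0.76%. In mitotic cells 1 of 101 regions (0.99%) was called in each direction, beside 0.589% for Suv39h dn and 2.68% for WT. Sorted chromosomes gave 10 of 689 regions (1.45%) for Suv39h dn, beside 2.09%, and 19 (2.76%) for WT, beside 2.71%. These shares stayed near the background of all regions.

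By the percentile of fold enrichment within each list, the leading Suv39h dn regions in asynchronous cells lay in a non-coding exon of Olfr1341, with folds of 5.12 and 13.9, and in the coding exon of Olfr1, with 4.27 and 9.2. Fold enrichment is the peak caller's ratio of signal to local background. In WT they lay in an intron of Olfr648 (5.22 and 8.42) and near Olfr722 (6.79 and 3.73), the second of which was also called in WT chromosomes at 5.05. In sorted chromosomes, peaks near Olfr714 (5.21 and 6.28) and Olfr1318 (5.01 and 5.52) were called only in the Suv39h dn libraries. A peak in the coding exon of Sprn, the gene of the prion-like protein Shadoo, near Olfr522 (5.56 and 6.24) was called in WT alone, and so, among chromosome libraries, was one near Olfr474 (5.9 and 6.03) that 2 asynchronous libraries also held. The Sprn summit lay 303 bases from the start of that gene. All 4 chromosome libraries had a peak within 1 kb of that start, so the genotypes differed there in this region only. The mitotic regions were called in other preparations as well, near Olfr1339 with folds of 6.25 and 6.07 in mitotic Suv39h dn cells and in a non-coding exon of Olfr750 with 4.48 and 3.92 in mitotic WT cells.

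Fewer receptor genes than other genes had a peak nearby. Over the 12 libraries together, 655 of 1128 Olfr genes (58.1%) had a summit inside or within 10 kb, against 96.1% of 19679 other protein-coding genes. Olfr genes are shorter, with a median length of 5994 bases against 19366. With 10 kb on each side of the annotated start alone, so that the length no longer entered, the shares were 48.4% and 92.6%. Per library, 8.16% to 26.7% of Olfr genes and 44.0% to 75.2% of other genes had such a peak in asynchronous cells, and 11.3% to 16.7% against 56.6% to 72.1% in sorted chromosomes. In mitotic cells the ranges were 0.621% to 3.81% and 5.35% to 40.1%.

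The low density was shared by most clusters but not all. Genes at most 500 kb apart formed 53 clusters, 23 of them with 10 or more genes and 1024 genes together. Of these 23, 21 were under 1 observed over uniform in asynchronous cells and 20 in sorted chromosomes, on the mean of 4 libraries. Windows of like size elsewhere were not counted, so these counts are not shown to be particular to receptor clusters. The largest cluster, 227 genes on chromosome 2 (85330779 to 90403897), had a mean of 0.429 in asynchronous cells and 0.233 in sorted chromosomes. The 95 genes on chromosome 9 (37708964 to 40190134) gave 0.652 and 0.244, and the 129 genes on chromosome 7 (102476579 to 105369355) gave 0.694 and 0.493.

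In these 3 clusters the ranges of asynchronous cells and sorted chromosomes did not overlap. They were 0.359 to 0.526 against 0.193 to 0.295 on chromosome 2, 0.527 to 0.827 against 0.216 to 0.267 on chromosome 9, and 0.598 to 0.906 against 0.357 to 0.551 on chromosome 7. No test was made of single clusters, and how often the ranges separate in windows elsewhere on the autosomes was not counted. In the other 3 of the 6 largest clusters the ranges overlapped. The 66 genes on chromosome 19 (11826803 to 13921866) gave 0.436 and 0.418, and the 49 genes on chromosome 17 (37083871 to 38336643) gave 0.546 and 0.405. The 60 genes on chromosome 10 (128989431 to 130214403) were the exception among the 6 largest clusters, at 1.1 in asynchronous cells and 1.12 in sorted chromosomes. Smaller clusters could separate in either direction. The 21 genes on chromosome 11 (58454105 to 58844111) gave 0.266 to 0.351 in asynchronous cells and 0.442 to 1.46 in sorted chromosomes. The 42 genes on chromosome 7 (107812263 to 108894420) gave 0.993 to 1.11 and 0.314 to 0.811.

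**Figure D2:**
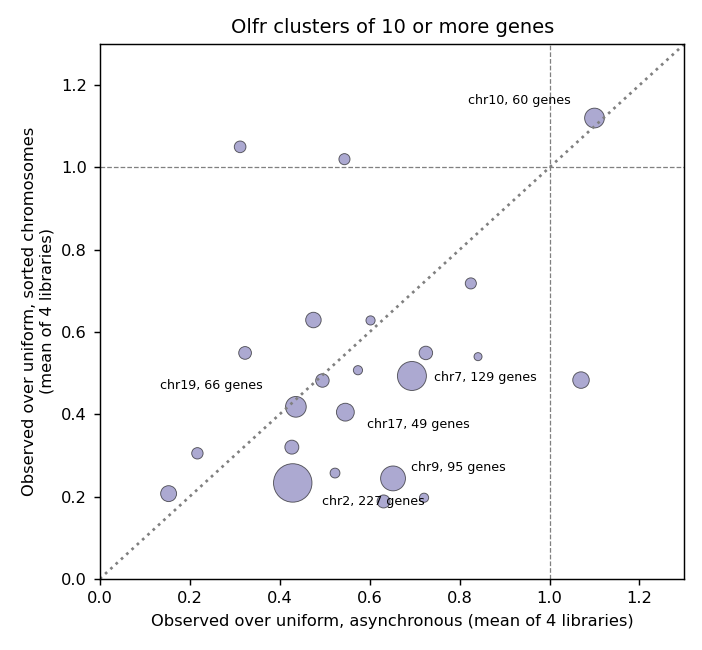
Observed over uniform peak share of the 23 Olfr clusters of 10 or more genes in asynchronous cells (x axis) and sorted chromosomes (y axis), each the mean of 4 libraries, with circle area in proportion to the number of genes. The 6 largest clusters are labelled, the dashed lines mark 1 and the dotted line equality; the chromosome 10 cluster is the only labelled one above 1 on both axes.

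The other chemosensory families showed low values too. Windows of Vmn1r genes, vomeronasal receptors, gave 0.424 to 0.515 observed over uniform in asynchronous cells and 0.476 to 0.767 in sorted chromosomes. Those of Vmn2r genes gave 0.344 to 0.588 and 0.299 to 0.529. Taste receptors (Tas2r) gave 0.2 to 0.713 and 0.376 to 0.777, on 25 and 29 peaks in all. Trace amine receptors (Taar) had 12 and 5 peaks, too few to place. The share in the Olfr windows was thus not shown to differ from that of other receptor families, and this was not tested.

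Peaks at start sites of neighbouring genes made up a small share of the Olfr-window peaks. In asynchronous cells 7.76% to 10.5% had a summit within 1 kb of the start of a gene outside the Olfr family, in mitotic cells 16.7% to 25.0%, and in sorted chromosomes 5.26% to 13.3%. Of all autosomal peaks, 25.3% to 36.1%, 45.2% to 56.9% and 27.1% to 35.5% lay within 1 kb of any start site. Sorted chromosomes exceeded asynchronous cells by 1.22 percentage points (exact two-sided permutation p = 0.543, 70 arrangements). The difference turned to −32.5 points among the 1700 strongest peaks of each list (exact p = 0.0286), on 5 to 10 Olfr-window peaks per library, and to −6.78 points at q of 1e-05 or less (exact p = 0.114). The lowest chromosome value, 5.26%, was that of the first Suv39h dn library, and without it the difference was 2.92 points (exact p = 0.0571). The 56 genes concerned included 24 protein-coding ones.

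Of the 12 regions called in the most libraries, 5 were promoters of such neighbours. A region at the start of Zfp174, a zinc-finger gene beside Olfr15 (chr16:3847075-3847488), was called in 10 of 12 libraries. Its folds were 7.25 and 13.5 in asynchronous WT, 7.92 and 11.7 in asynchronous Suv39h dn, 9.72 and 6.5 in the second mitotic library of each genotype, 6.15 and 8.46 in WT chromosomes and 4.81 and 4.44 in Suv39h dn chromosomes. The other 4 included regions at the starts of Gm12258 near Olfr311 (10 libraries), Trim68 near Olfr557 (9) and Zfp202 near Olfr986 (8). The last stood at the start of H2-M3, a non-classical major histocompatibility gene near Olfr98 (7, with no chromosome library). Counting every summit within 1 kb, however, the H2-M3 start was reached in 10 libraries, and chromosome preparations accounted for 3. Trim68, which encodes a ubiquitin ligase of the tripartite-motif family, reached folds of 17.8 and 21.5 in the second asynchronous libraries and 3.37 to 6.68 in 3 chromosome libraries.

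The remaining 7 regions stood at no start site of another protein-coding gene. A region in an intron of Olfr643 (chr7:104120254-104120772) was called in 9 libraries, with folds of 4.27 to 11.7 in asynchronous cells, 6.6 to 9.05 in sorted chromosomes and 7.27 in the only mitotic library that held it. It belonged to sequence family 1, and so did a second Olfr643 intron region called in 7 libraries. Regions near Olfr288 (8 libraries), in Olfr56 (8), near Olfr339, near Olfr1034 and in a non-coding exon of Olfr484 beside the start of the snRNA gene Gm25424 (7 each) made up the rest. No Olfr-window region was called in 11 or 12 libraries, beside 0.222% and 0.154% of all regions, and 427 of 1141 (37.4%) were called in 2 or more, beside 37.1% of all regions. The sequences of the Zfp174 and Olfr643 regions follow, with the 21 bases around the summit in capitals. They show a promoter region with the highest library count and the most widely called region away from a start.
Zfp174 promoter, chr16:3847050-3847250: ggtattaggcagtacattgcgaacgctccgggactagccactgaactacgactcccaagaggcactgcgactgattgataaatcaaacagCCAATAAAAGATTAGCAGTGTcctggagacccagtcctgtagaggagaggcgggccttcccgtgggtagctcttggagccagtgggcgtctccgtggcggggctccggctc
Olfr643 intron, chr7:104120604-104120804: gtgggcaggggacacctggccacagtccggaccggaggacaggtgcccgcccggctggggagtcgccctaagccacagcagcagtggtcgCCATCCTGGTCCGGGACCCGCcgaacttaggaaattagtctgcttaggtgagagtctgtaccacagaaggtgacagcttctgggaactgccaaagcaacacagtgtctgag

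**Figure D3:**
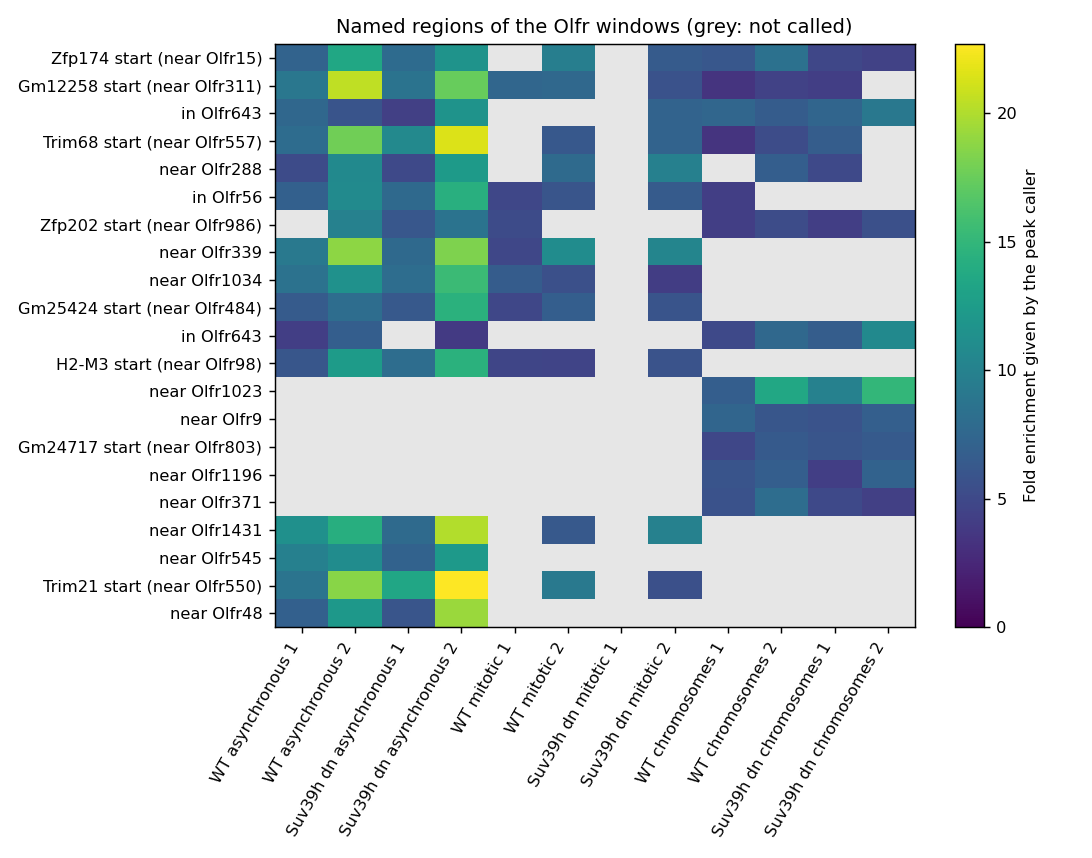
Fold enrichment (colour) of 21 named Olfr-window regions (rows) in the 12 libraries (columns), with grey where no peak was called. The upper 12 rows are the regions called in the most libraries, the next 5 those called in all 4 chromosome libraries alone, and the last 4 were called in all 4 asynchronous libraries and in no chromosome library, as 4 of the upper 12 rows also were.

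Some regions separated the preparations. In all 4 chromosome libraries and no other library 11 regions were called (0.964%), beside 1.32% of all regions. In all 4 asynchronous libraries and no chromosome library 42 were called (3.68%), beside 2.8%. The chromosome regions had a median GC content of 57.7% and the asynchronous ones of 48.3%. Peaks outside the windows also differed, with medians of 56.7% to 57.2% in chromosome libraries and 51.7% to 52.7% in asynchronous ones. Of the 42, 21 belonged to families 4, 5 or 7 (12, 7 and 2 regions), and of the 11, 3 belonged to family 1 and 1 to family 3.

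By the same percentile, the chromosome regions were led by one near Olfr1023, with 6.74 and 13.6 for WT and 10 and 15 for Suv39h dn. A region near Olfr9, between genes, had folds of 7.4, 6.03, 5.84 and 6.91, and those near Olfr803, Olfr1196 and Olfr371 had folds between 4.17 and 8.09. Among the asynchronous regions, one near Olfr1431 reached 11.4 and 14.2 (WT) or 7.88 and 20.1 (Suv39h dn), and it was also called in both second mitotic libraries. The start of Trim21, a ubiquitin ligase gene near Olfr550, had folds of 8.71, 18.7, 13.4 and 22.7 in the same order. A region near Olfr545 was called in asynchronous libraries alone, at 9.88, 11, 7.12 and 12.2. The sequences show 1 region of each kind, neither of them in a family of 12 or more, with capitals at the summit.
Near Olfr9, chromosomes alone, chr10:128995665-128995865: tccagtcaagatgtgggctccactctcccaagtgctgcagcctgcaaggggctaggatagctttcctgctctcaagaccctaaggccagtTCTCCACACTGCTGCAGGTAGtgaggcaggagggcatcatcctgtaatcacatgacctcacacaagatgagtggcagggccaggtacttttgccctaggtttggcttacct
Near Olfr545, asynchronous alone, chr7:102506952-102507152: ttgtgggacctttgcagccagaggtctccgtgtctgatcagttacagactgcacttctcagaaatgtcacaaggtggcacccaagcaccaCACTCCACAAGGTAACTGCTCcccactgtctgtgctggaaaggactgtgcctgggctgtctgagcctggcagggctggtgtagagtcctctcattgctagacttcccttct

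In sorted chromosomes a larger share of the Olfr-window peaks lay on the receptor genes themselves. This measure was chosen after the values were seen. The coding exons are 4.74% of the windows. They held 6.14% and 4.89% of the Olfr-window peaks in asynchronous WT and 4.07% and 4.61% in asynchronous Suv39h dn, but 9.17% and 14.0% in WT chromosomes, 15.4% and 14.0% in Suv39h dn chromosomes. The groups of 4 did not overlap, and the difference of 8.21 percentage points gave an exact two-sided permutation p of 0.0286, the smallest of 70 arrangements. With the replicate number as a block the exact p was 0.0556, the smallest possible there, and it was 0.0571 when any 1 of the 4 asynchronous libraries was left out. Mitotic cells gave 1 to 3 such peaks per library.

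The same held within 1 kb of an Olfr start site. The shares were 5.69% to 8.81% in asynchronous cells and 11.0% to 18.9% in sorted chromosomes, a difference of 9.02 points (exact permutation p = 0.0286). The exact p was 0.0556 with the block and 0.0571 without any 1 of the 4 asynchronous libraries. Coding exons of other genes also held more of the other peaks in sorted chromosomes, 8.05% to 9.29% against 1.92% to 2.29%. The rise in coding exons was therefore not shown to be particular to receptor genes. For start sites, 25.3% to 36.1% of all autosomal peaks in asynchronous cells and 27.1% to 35.5% in sorted chromosomes lay within 1 kb of any start. Whether the rise at Olfr starts was particular to them was not tested. The start-site and coding-exon measures share peaks, as at Olfr9 and Olfr94, and are not separate results.

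Few peaks of sorted chromosomes passed a stricter threshold, on coding exons or elsewhere. At q of 1e-05 or less, 0 of 20, 2 of 41, 1 of 44 and 4 of 24 remained in the 4 chromosome libraries, against 3 of 7, 9 of 13, 1 of 5 and 14 of 22 in asynchronous cells. Of the other Olfr-window peaks 5.56% to 23.6% remained in sorted chromosomes and 28.0% to 56.9% in asynchronous cells, and of the peaks elsewhere 7.31% to 18.7% and 29.8% to 59.3%. Among these stronger peaks the coding share was 0% to 10.3% in sorted chromosomes and 2.94% to 7.14% in asynchronous cells, a difference of −0.301 points (exact permutation p = 0.914). The start-site difference fell to 3.93 points (exact p = 0.257). In the other genes' coding exons the same threshold left 8.43% to 9.99% against 1.63% to 2.01%. Coding-exon peaks had a median GC content of 55.2% in sorted chromosomes, 53.2% in asynchronous cells and 52.2% in mitotic cells, where the Olfr coding exons as a whole have 44.7% and the windows 38.6%.

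**Figure D4:**
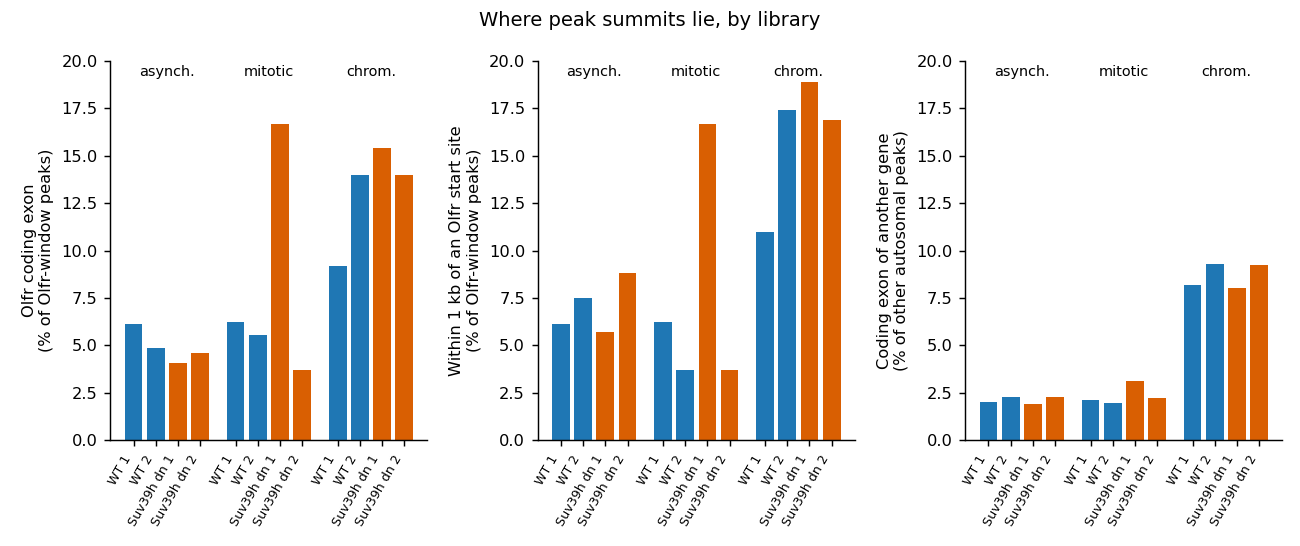
Percent of Olfr-window peaks in an Olfr coding exon (left) and within 1 kb of an Olfr start site (middle), and percent of the other autosomal peaks in a coding exon of another gene (right), per library, WT in blue and Suv39h dn in orange. In all 3 panels the 4 chromosome bars stand above the 4 asynchronous bars, and the tall mitotic bar is 1 of 6 peaks.

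Peaks on receptor coding exons were spread over many genes. Of the 1128 Olfr genes, 76 had one, 60 in sorted chromosomes and 24 in asynchronous cells. At start sites 110 of the 1128 had a peak, 73 in sorted chromosomes and 46 in asynchronous cells. The same counts were not made for other genes, whose coding exons also held a larger share of peaks in sorted chromosomes. Most regions were called once in any case, 62.6% of the Olfr-window regions and 62.9% of all regions being called in 1 library. In sorted chromosomes the summits fell in the first, middle and last part of the coding exon, cut into 3 equal parts, in 39, 41 and 40 of 120 placed peaks, and in asynchronous cells in 10, 24 and 7 of 41. These peaks were pooled over libraries, so a site called in several libraries counted more than once, and no test was made.

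Olfr9 had a start-site peak in the most libraries, 7, with folds of 6.94, 11.5, 4.16 and 11.3 in asynchronous cells, 4.9 in 1 mitotic library and 4.21 and 4.17 in the first chromosome libraries. Olfr545 (6 libraries) was called in all 4 chromosome libraries at 3.36 to 5.99 and in the second asynchronous libraries at 6.62 and 7.91. Olfr94 (5 libraries) was called in all 4 chromosome libraries, at 5.33 and 6.36 (WT) or 7.03 and 7.47 (Suv39h dn), and in 1 asynchronous library at 5.5. Olfr1344 was called in the chromosome libraries alone, between 5.15 and 5.47, and so was Olfr641 (3.34 to 6.93). Olfr823 showed the opposite, with 5.74 to 8.66 in the 4 asynchronous libraries and none in chromosomes. Olfr763 was called in 5 libraries, and Olfr718-ps1, annotated as protein-coding, Olfr373 and Olfr372 in 4 each. The reference sequence under the Olfr94 summit lies in its coding exon and is shown as the example of such a site, with capitals at the summit.
Olfr94 coding exon, chr17:37197620-37197820: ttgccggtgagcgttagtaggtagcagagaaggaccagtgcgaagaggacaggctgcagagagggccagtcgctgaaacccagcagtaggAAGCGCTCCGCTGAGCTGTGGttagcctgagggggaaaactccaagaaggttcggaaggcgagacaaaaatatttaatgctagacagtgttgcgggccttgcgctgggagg

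The promoters themselves were poor in GC. RefSeq promoters (GRCm38.p6, 300 bases around the start) were matched for 925 of 1128 Olfr genes, with a median GC content of 35.0% against 53.3% for 31922 other promoters. The 90 promoters of genes with a start-site peak had a median of 42.7%, and the 839 without one 34.7%. TAATTA, searched on both strands, was found in 18.7% of Olfr promoters and 4.9% of the others. It was found for 5 of the 60 matched Olfr genes with a start-site peak in sorted chromosomes and for 5 of 38 in asynchronous cells. CCCNNGGGA, an Ebf core, was in 2.58% of Olfr promoters and 6.67% of the others. TAATTA holds only A and T, and the fixed letters of the Ebf core are mostly G and C. These shares were not adjusted for the GC content of the promoters, so they show no enrichment of either motif beyond it.

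Many of the Olfr-window peaks stood on repeats. The summit base was soft-masked in the reference, that is marked as repetitive, in 53.7% to 56.8% of these peaks in asynchronous cells, 43.8% to 51.9% in mitotic cells and 48.5% to 53.2% in sorted chromosomes. Of the peaks elsewhere it was masked in 20.4% to 27.8%, 15.1% to 24.6% and 23.1% to 29.2%. The windows are 44.0% masked and the autosomes 32.6%. Counting unmasked summits alone, over unmasked bases, observed over uniform was 0.375 to 0.489 in asynchronous cells, 0.221 to 0.32 in mitotic cells and 0.342 to 0.452 in sorted chromosomes. Then both preparations exceeded mitotic cells (exact permutation p = 0.0286, adjusted 0.0429, chosen after the data were seen). Reads from one copy of a repeat cannot always be told from those of another, and no filter on mapping quality is given in the sources used here.

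The sequence families differed between preparations. They were found after the lists were seen and carry no test. Merged regions were assigned across all autosomes by similarity of the summit sequence of their strongest peak in any library to the representative. Every peak of a matching region was then counted for its own library. Family 2 (71 Olfr-window regions, 62 of them in 1 library) was nearly a chromosome family, with 1109, 1072, 1283 and 635 peaks in the 4 chromosome libraries and 16 to 64 in the asynchronous ones. Its sequence had 1060 copies in the Olfr windows. Families 4 and 7 (34 and 13 regions) showed the reverse. Family 4 had 290 and 389 peaks in asynchronous WT, 290 and 436 in asynchronous Suv39h dn and 0 or 1 in each chromosome library. In mitotic cells it held 0.294% to 1.66% of the peaks, beside 0.564% to 1.34% in asynchronous cells. Family 7 had 139 to 329 in asynchronous cells, 2 to 70 in mitotic cells and none in chromosomes, where 0 peaks allow a share of up to 0.00462% to 0.00685% (3 peaks of each list).

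Family 5 (30 regions) fell between these, with 0.837% to 1.73% of all peaks in asynchronous cells, 0.588% to 1.47% in mitotic cells and 0.114% to 0.16% in sorted chromosomes. Families 1 and 3, both rich in GC (medians of 62.7% and 61.9%), were found in both preparations. Family 1, the largest with 127 regions, held 1.22% to 4.09% of asynchronous and 2.58% to 2.87% of chromosome peaks. Family 3 (56 regions) held 0.939% to 3.53% and 4.29% to 5.15%. In asynchronous cells the highest value of families 1, 3 and 6 was that of the second Suv39h dn library, which also had the longest list. Without it, the asynchronous highest of families 1 and 3 were 2.85% and 1.59%.

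Family 3 matched a LINE-1 (L1) promoter, L1 being an abundant retrotransposon. The study's supplement lists a pair of primers for L1 promoter transcripts. The forward one had 55 exact copies in the Olfr windows, and 33 of the 56 regions of family 3 held it within 100 bases of the summit. No region of the other 6 families did. The forward primer of L1 ORF2, the reverse transcriptase part of the same element, had 131 exact copies in the windows and was found within 100 bases of no Olfr-window summit. SINE B2 forward primer copies numbered 40, and none lay that close to a summit. An exact match is strict, and copies with a changed base were not counted. No repeat annotation was used, so a family without a match could still belong to L1 or to another repeat.

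Family 6 was called in asynchronous cells, and its 13 Olfr-window regions came from 1 library, the second Suv39h dn one. Across the autosomes it held 36 and 112 peaks in WT (0.166% and 0.203%) and 75 and 605 in Suv39h dn (0.31% and 0.783%). The family reached the minimum of 12 regions through the second Suv39h dn library alone. Its share there was thus favoured by the choice, and the genotypes cannot be compared on these values, which were not tested. In mitotic cells it had 1 to 9 peaks and in chromosomes 0 or 1. The octamer ATGCAAAT was in 12 of its 13 regions, beside 2.89% of all Olfr-window regions and 1.51% of the other regions. TAATTA was in 23 of the 34 regions of family 4, beside 4.73% of all Olfr-window regions and 2.1% of the other regions. These 23 included all 9 of the 42 asynchronous regions absent from chromosomes that held it. The Sox core ACAATGG was in 11 of 34, beside 4.12% and 3.15%. Regions of a family were grouped by their sequence, so a motif found in several of them does not count as separate matches. A match of this kind describes the letters and not a bound factor.

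**Figure D5:**
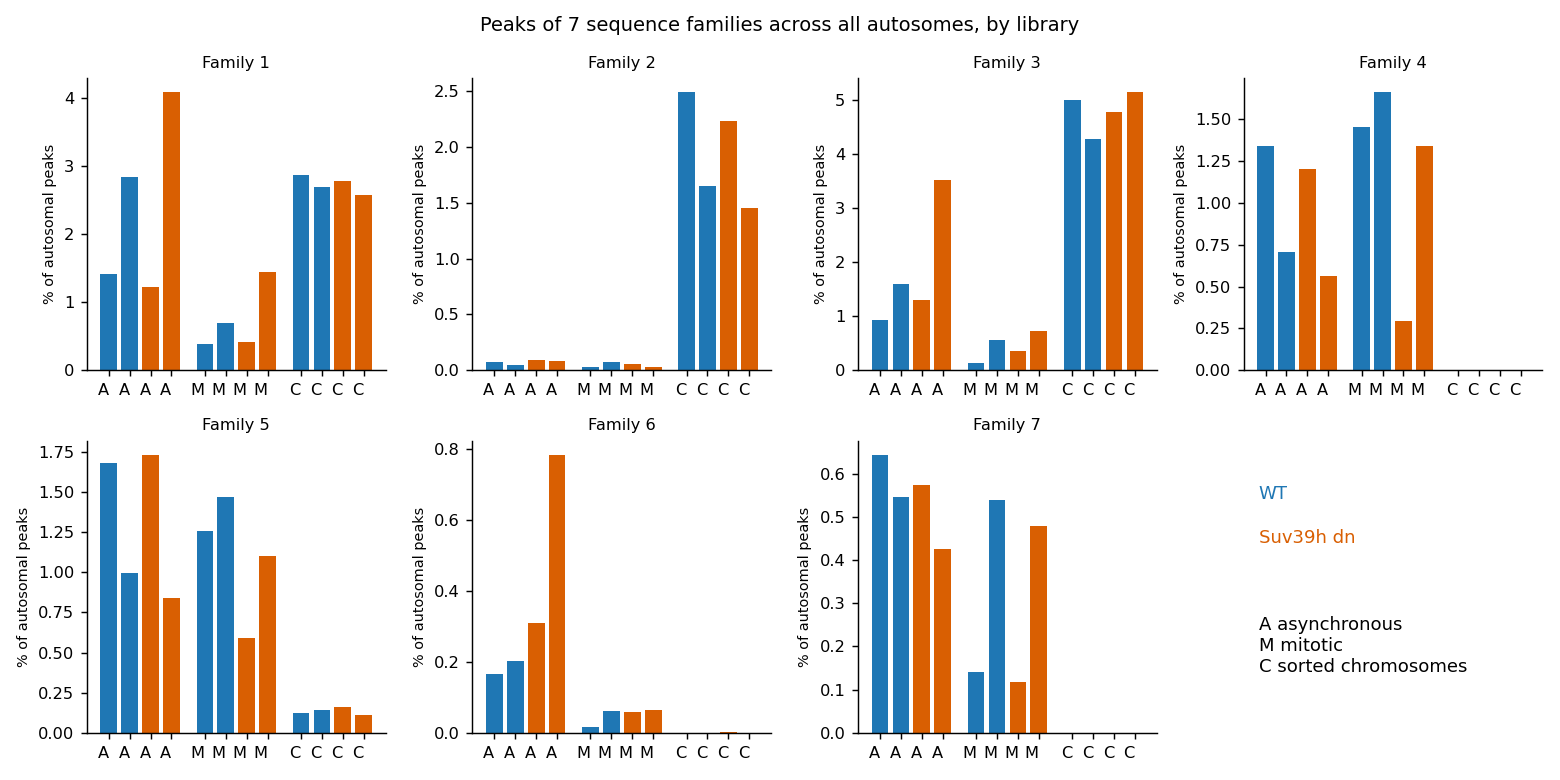
Percent of all autosomal peaks of each library (y axis, own scale in each panel) in merged regions that match the representative of families 1 to 7, WT in blue and Suv39h dn in orange, ordered by preparation (A asynchronous, M mitotic, C sorted chromosomes). Family 2 is high in the 4 chromosome libraries alone, and families 4, 6 and 7 are at or near 0 there.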

How the data were processed

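The authors demultiplexed reads with bcl2fastq (version 2.20.0), trimmed them with Trim Galore (0.4.4), aligned them to mm10 with Bowtie2 (2.2.9) and handled them with SAMtools (1.2). Technical runs were merged, duplicates marked, short fragments kept and shifted, and MACS2 peaks called per library, without pooling. The 12 deposited peak lists hold a score, a ratio (fold enrichment over local background), and a −log10 p-value and q-value per peak, the lowest −log10 q being 1.3. They hold no read counts, so sequencing depth is unknown, and intervals and limits from a count of 0 cover counting error of peaks only.

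Summits were placed on GENCODE vM21 genes with Python 3.11.15, pandas 2.3.3 and numpy 2.4.6. The library was the unit, and its percent of peaks was compared with exact permutation tests, tested on simulated lists. Binomial intervals were computed with scipy 1.17.1. Summit sequences of 201 bases from mm10 were compared with blastn 2.17.0+. Over 2413 bins of 1 Mb, deviations of same-numbered WT and Suv39h dn libraries correlated. The values were 0.28 in asynchronous cells, 0.316 in mitotic cells and 0.479 in chromosomes. The replicate number was therefore used as a block in an alternative setting, while the main tests did not use it. Named regions were the 12 called in the most libraries and those leading by fold percentile among regions called in 1 genotype or preparation. Named clusters were the 6 largest, and named start-site genes the 10 called in the most libraries. Members, lists and tests were chosen with earlier results of these data known. Alternatives changed the window, q threshold, list length, start sites, masking, block and libraries.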

Additional observations from a re-analysis of the deposited data

Results flagged for a closer look

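The median GC content of the 201 bases around the summits of Olfr-window peaks was 55.7% in the first Suv39h dn chromosome library and 56.2% in the other 3 chromosome libraries. The 3 equal values set the lower one apart, but the step between them is 1 base of the window, so the gap says nothing about that library. In all, 18 groups were examined, and chance alone flags about 1 in 20.

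The 7 Olfr genes of the X chromosome lay outside the comparisons. Their windows of 0.202 Mb held 14 peaks over the 12 libraries, between 0 and 3 in each, with 6 in asynchronous cells, 1 in mitotic cells and 7 in sorted chromosomes.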

How the results depend on the processing

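The direction or call changed as follows, and the cause was not tested. With summits inside a gene alone, the spread between preparations was 0.00171 (exact permutation p = 0.263) and sorted chromosomes minus asynchronous 0.0153 points. With windows of 50 kb the spread was 0.129 (exact p = 0.0748). At q of 1e-05 or less, Suv39h dn minus WT was −0.02 points, and sorted chromosomes minus asynchronous was −6.78 points at other genes' start sites, −0.301 in Olfr coding exons and 3.93 at Olfr start sites. With lists of 1700 peaks these 3 were −32.5, 0 and 0, and the spread 0.0646 (exact p = 0.0933). With start sites left out, sorted chromosomes minus mitotic was −0.0121. With unmasked summits alone, chosen after seeing the data, it was 0.0912 and mitotic minus asynchronous −0.0955 (both adjusted exact p = 0.0429).

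With the replicate block, the coding-exon and Olfr start-site differences were 8.21 and 9.02 points (exact p = 0.0556, the smallest possible). The block changed no other call. Libraries of different preparations with the same number correlated at −0.283 to 0.27.

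Leaving out 1 library gave −0.00465 (without WT mitotic 1) to 0.0499 points for Suv39h dn minus WT, and 0.0384 to 0.0713 for the spread. Sorted chromosomes minus asynchronous ran from −0.0931 to −0.0482 and mitotic minus asynchronous from −0.204 to −0.149, both at an adjusted exact p of 0.0429 without WT asynchronous 2. Sorted chromosomes minus mitotic ran from 0.0729 to 0.128. The differences at other genes' start sites ran from 0.241 to 2.92, in coding exons from 7.45 to 9.54 and at Olfr start sites from 8.05 to 10.7. The coding-exon and Olfr start-site calls were lost without any 1 of the 4 asynchronous libraries (exact p = 0.0571).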
